A study of Drosophila melanogaster with 6 samples.

Results

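The genes described here are GluRIIA, GluRIIB, GluRIIC, GluRIID and GluRIIE, which encode the muscle glutamate receptor subunits of the Drosophila larval neuromuscular junction. They were chosen by name: 4 were listed under these symbols and GluRIID was found by its FlyBase identifier under its older symbol KaiRIA, giving 5 of the 11621 genes in the table. RNA was sequenced from larval cuticles, which hold the epidermis and the body wall muscles once the inner organs have been taken out, with 40 cuticles pooled per sample by the design text and fewer by the methods of the paper. There were 3 control samples of the genotype w1118, taken 7 days after egg laying. The 3 tumour-bearing samples, taken at 10 days, carried y,w,ey-flp and act5C>y+>GFP, together with UAS-RasV12 and with FRT82B,tub-gal80 over FRT82B,scrib1. In these larvae the eyeless-driven flippase makes marked clones in the eye discs that lack scrib and express oncogenic Ras, so the tumour starts outside the tissue sequenced. The paper describes these tumours as invasive, and whether tumour cells had reached the body wall was not tested. Age, genetic background and the lane label in the column headers change together with the tumour and cannot be told apart from it. Rearing temperature may also differ. The paper's methods describe a temperature shift for RasV12, scrib1 larvae, without saying whether the sequenced larvae had it.

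At this synapse the motor neurone releases glutamate and the muscle fibre carries ionotropic, kainate-type receptors. Each receptor holds the shared subunits GluRIIC, GluRIID and GluRIIE together with either GluRIIA or GluRIIB. GluRIIA-containing receptors pass more current because GluRIIB-containing ones desensitise faster. Loss of any of the shared subunits removes the receptors from the synapse, and the auxiliary protein Neto is needed for receptors to cluster there. Transcript levels do not measure receptors at the membrane.

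In the BDGP6 annotation the genes lie at 3 places, each with 1 annotated transcript. GluRIIA (FBgn0004620) lies on chromosome 2L at 5555072 to 5558994 and has 12 exons, and GluRIIB (FBgn0020429) starts 347 bases after it on the same strand, at 5559342 to 5563502, with 13 exons. GluRIIC (FBgn0046113) is elsewhere on 2L, at 914086 to 917805, with 11 exons. On 3R, GluRIID (FBgn0028422, 20648595 to 20652450, 14 exons) and GluRIIE (FBgn0051201, 20644154 to 20648716, 13 exons) are neighbours on the minus strand and share 122 exon bases. A further 126 exon bases of GluRIIE are shared with Lrrk on the opposite strand, and 66 of GluRIIA with CG14017 on the same strand. Since the library kit does not mark strand, reads in the bases shared with Lrrk cannot be told apart by gene. The same holds, whatever the kit, for reads wholly within the bases that GluRIID shares with GluRIIE or GluRIIA with CG14017.

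Depth was 62617114 to 84149121 counts per sample. Control replicate 3 stood apart from the other control samples, at -73.8 on the second principal component of log2 CPM (counts scaled to a common library total) against 22.5 and 47.4. Several results that rest on it are given without it as well. The summed level of 21 muscle structural genes was 60525 to 211620 CPM in control and 19691 to 26111 in tumour-bearing samples, so the labelled muscle was present in every library. VGlut, the vesicular glutamate transporter of motor neurones, was listed at 0 to 26.4 normalized counts and was too low to test.

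All 5 subunit genes had lower transcript levels in the tumour-bearing cuticles, by 2.50-fold for GluRIID to 4.54-fold for GluRIIB. By edgeR's quasi-likelihood test with Benjamini-Hochberg adjustment, 5 of 5 passed as lower at an adjusted p of 0.05, where 2320 of 10074 genes tested passed as lower (23%). For each of the 5 genes, every tumour-bearing sample was below every control sample, as it was for 29.7% of all genes tested. The genes of the interchangeable subunits had larger decreases than those of the shared subunits, a difference that was within the spread of the control samples when tested as a ratio. That order did not hold without control replicate 3, where the log2 fold changes were -2.10 for GluRIIC, -1.97 for GluRIIA and -1.85 for GluRIIB. Values are normalized read counts, meaning raw counts divided by library sizes scaled with trimmed-mean (TMM) factors and multiplied by their mean.

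GluRIIA, the subunit of the receptors with the larger currents, was at 5491, 5599 and 6349 normalized counts in control and at 1390, 1308 and 1597 in tumour-bearing samples. The samples within each group lay close together and the groups were far apart. Its mean fell from 5813 ± 467 to 1432 ± 149 (SD, n = 3 each), a log2 fold change of -2.02 (SE 0.12, edgeR adjusted p = 0.000414). Of all genes tested, 7.42% had a larger decrease.

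GluRIIB, the alternative to GluRIIA in the receptor, was at 2442, 2247 and 4278 normalized counts in control and at 745, 615 and 616 in tumour-bearing samples. Control replicate 3 was well above the other controls, and all tumour-bearing samples were below all controls. The mean fell from 2989 ± 1120 to 659 ± 74.6 (SD, n = 3 each), with a log2 fold change of -2.18 (SE 0.28, edgeR adjusted p = 0.00246). Without control replicate 3 the log2 fold change was -1.85.

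GluRIIC, a shared subunit, was at 7213, 11500 and 3038 normalized counts in control and at 1863, 2148 and 2619 in tumour-bearing samples. The control samples spread widely, with a coefficient of variation of 58.4% against 8.04% for GluRIIA, and the lowest, control replicate 3, was only just above the highest tumour-bearing sample. The mean fell from 7250 ± 4231 to 2210 ± 382 (SD, n = 3 each), with a log2 fold change of -1.71 (SE 0.47, edgeR adjusted p = 0.0289). This was the least secure call of the 5. It held without control replicate 3 (-2.10, adjusted p = 0.00132) but was lost when any other sample was left out, with log2 fold changes from -1.23 without control replicate 2 to -1.85 without tumour-bearing replicate 3 and adjusted p from 0.0633 to 0.0952 (edgeR).

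GluRIID, a shared subunit and the most abundant of the 5 transcripts, was at 12719, 12158 and 9210 normalized counts in control and at 3798, 4895 and 4916 in tumour-bearing samples. All controls were well above all tumour-bearing samples. Its mean fell from 11362 ± 1885 to 4536 ± 640 (SD, n = 3 each), a log2 fold change of -1.32 (SE 0.18, edgeR adjusted p = 0.00284).

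GluRIIE, the remaining shared subunit, was at 5949, 7274 and 4789 normalized counts in control and at 1525, 2255 and 2651 in tumour-bearing samples. Again the groups did not overlap. The mean fell from 6004 ± 1243 to 2144 ± 571 (SD, n = 3 each), a log2 fold change of -1.49 (SE 0.26, edgeR adjusted p = 0.00614).

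**Figure D1:**
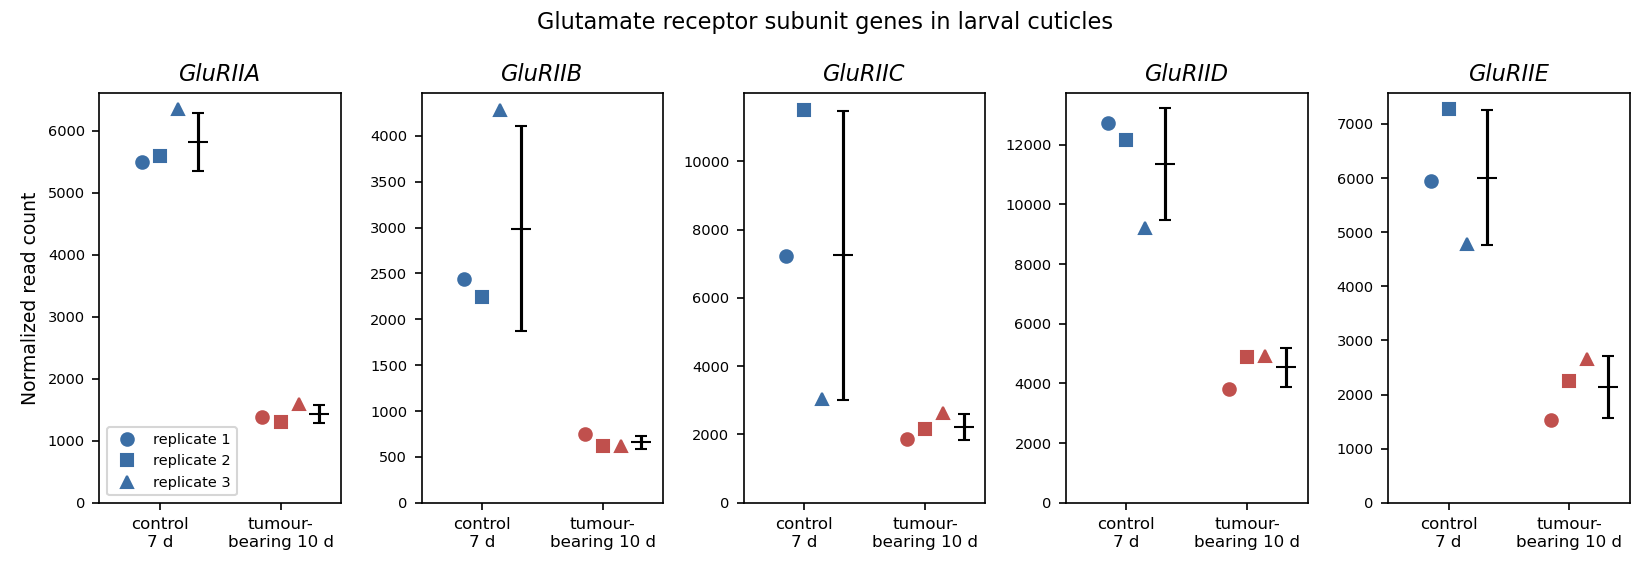
Normalized read counts (vertical axes, starting at 0) of each receptor subunit gene in 3 control and 3 tumour-bearing samples, with a marker per replicate number and black bars for the mean ± SD. All tumour-bearing samples sit below all controls in each panel, and control replicate 3 (triangle) is the highest control for GluRIIA and GluRIIB and the lowest for GluRIIC, GluRIID and GluRIIE.

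These calls depend on how libraries are scaled. With total counts only, the median of the tested genes moved from 0.01 to 0.94 on the log2 fold change scale, and 2 of 5 subunit genes, GluRIIA (-1.10) and GluRIIB (-1.30), passed as lower by edgeR, while GluRIIC (-0.69), GluRIID (-0.37) and GluRIIE (-0.52) did not. The lowest raw count behind any of these values was 669 reads, of GluRIIB in tumour-bearing replicate 2. In RNA from a whole tissue, fewer muscle cells and less RNA per cell cannot be told apart.

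**Figure D2:**
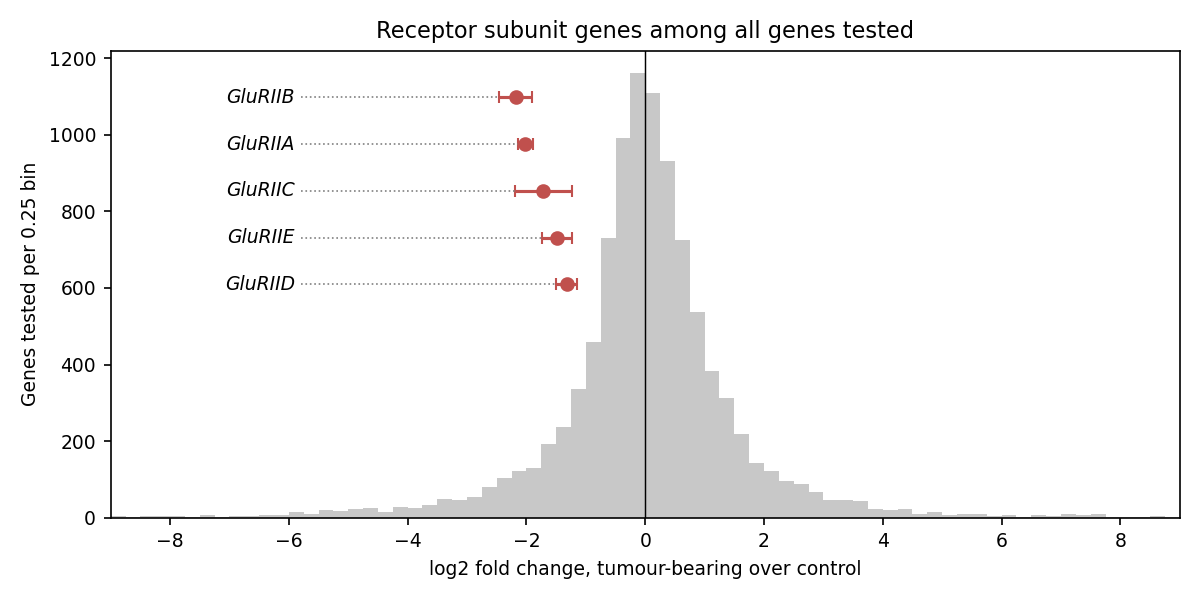
Histogram of the log2 fold change, tumour-bearing over control, of the 10074 genes tested (grey, genes per bin), with the 5 subunit genes as red points ± SE placed at arbitrary heights. The subunit genes run from -2.18 (GluRIIB) to -1.32 (GluRIID), left of the peak, and 6.59% (GluRIIB) to 12.3% (GluRIID) of genes had larger decreases.

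Per length of transcript the order of levels in control was GluRIID at 48.4 ± 8.03 CPM per kilobase, GluRIIC at 31.7 ± 18.5, GluRIIA at 23.4 ± 1.88, GluRIIE at 22.9 ± 4.74 and GluRIIB at 13.3 ± 4.98 (SD, n = 3 each). GluRIIA and GluRIIE lay within each other's spread, GluRIIC overlapped all of the others, and GluRIIE overlapped GluRIIB. In tumour-bearing samples the order was GluRIID at 19.3 ± 2.72, GluRIIC at 9.65 ± 1.67, GluRIIE at 8.16 ± 2.17, GluRIIA at 5.77 ± 0.60 and GluRIIB at 2.93 ± 0.33. GluRIIC and GluRIIE overlapped there, as did GluRIIE and GluRIIA, while GluRIID was above and GluRIIB below all the others in every sample. Among 9675 genes with an annotated length, GluRIID moved from percentile 86.8 to 74.3 by level and GluRIIB from 63.3 to 30.6.

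Ratios within a library do not depend on the scaling of libraries. The log2 ratio of GluRIIA to GluRIIB, which compares the alternative subunits, was 1.03, 1.18 and 0.43 in control and 0.76, 0.95 and 1.23 in tumour-bearing samples. The groups overlapped, and the difference of 0.10 was smaller than the SD among controls of 0.40 (exact permutation test, two-sided, p = 0.80, n = 3 each, with 0.10 the smallest p the design allows). Without control replicate 3 the difference was -0.12, and without tumour-bearing replicate 3 it was -0.02. Of the reads of both genes, GluRIIA held 69.2% in control replicate 1 (95% Wilson interval 67.9 to 70.5), 71.4% in control replicate 2 (70.1 to 72.6) and 59.7% in control replicate 3 (58.8 to 60.7). In tumour-bearing replicates 1, 2 and 3 it held 65.1% (63.4 to 66.8), 68.0% (66.0 to 70.0) and 72.2% (70.5 to 73.8). These intervals cover counting error only, and control replicate 3 lies outside those of all other samples.

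The log2 ratio of GluRIIA and GluRIIB together to the mean of the shared subunits was -0.13, -0.41 and 0.92 in control and -0.17, -0.69 and -0.62 in tumour-bearing samples. The difference of -0.62 was within the SD among controls of 0.70 (exact permutation test, two-sided, p = 0.20, n = 3 each), and without control replicate 3 it was -0.23. Of the 10 pairs of subunit genes, GluRIIA against GluRIID was the only pair whose log2 ratios did not overlap between the groups. Those ratios were -1.29, -1.20 and -0.62 in control and -1.53, -1.98 and -1.70 in tumour-bearing samples, a difference of -0.70 (exact permutation test, p = 0.10, adjusted p = 0.80 over 10 pairs, n = 3 each).

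Among samples of a group the genes of the shared subunits tended to vary together and GluRIIB against them, a pattern that leans on control replicate 3. Over the 6 samples, after taking out the group means, log2 levels correlated at r = 0.79 for GluRIIC with GluRIID, 0.76 for GluRIIC with GluRIIE and 0.87 for GluRIID with GluRIIE. GluRIIB correlated at r = -0.96 with GluRIIC, -0.90 with GluRIID and -0.75 with GluRIIE, and all of these values are a description that leans on control replicate 3. They were not computed without it. From control replicate 1 to 2, GluRIID (12719 to 12158) fell with GluRIIB (2442 to 2247), while GluRIIC (7213 to 11500) and GluRIIE (5949 to 7274) rose. In tumour-bearing samples GluRIIB was highest, and each shared subunit lowest, in replicate 1. GluRIIA and GluRIIB, the neighbouring genes, had r = 0.52 on the same measure.

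Muscle structural genes, the sarcomere proteins that fill the muscle fibre, were lower by more than the receptor subunits in most cases. Of the 21 tested, 16 passed as lower, against 23% of all genes, and the other 5 did not pass. Their median log2 fold change was -2.76 against 0.01 for all genes. Examples were up, which encodes troponin T, at 730624 ± 395304 in control and 50246 ± 23006 in tumour-bearing samples (log2 fold change -3.86, edgeR adjusted p = 0.0044, n = 3 each), and Unc-89, the fly obscurin, at -5.04. 15 of the 21 had a larger decrease than GluRIIB, and 4 had a smaller one than GluRIID or an increase.

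The mean log2 level of the 5 subunit genes minus that of the muscle structural genes was -5.76, -6.19 and -4.65 in control and -4.70, -4.91 and -4.82 in tumour-bearing samples. The difference of 0.72 was within the SD among controls of 0.80 (exact permutation test, two-sided, p = 0.40, n = 3 each), and it was 1.17 without control replicate 3 and 0.39 without control replicate 2. Taking the median of the log2 levels in place of the mean gave 1.26, more than that SD. With muscle identity factors, the transcription factors that set muscle fate, as the reference, the same difference was -1.26, the opposite sign. The sign therefore differed between these reference lists. The difference from the identity factors was not tested, and log2 fold changes within that list ran from -1.41 to 0.45. How well either list measures the amount of muscle was not tested.

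GluRIIC tracked the structural genes most closely among controls, with an SD of the difference of 0.04 against 0.68 to 1.47 for the other subunit genes. Its log2 level minus theirs was -5.48, -5.40 and -5.41 in control and -4.50, -4.65 and -4.44 in tumour-bearing samples. All tumour-bearing samples were above all controls (difference 0.90, exact permutation test, two-sided, p = 0.10, n = 3 each, the smallest p possible). The corresponding values for GluRIID were -4.66, -5.32 and -3.81 in control and -3.48, -3.47 and -3.53 in tumour-bearing samples, a difference of 1.10 that also had p = 0.10 by the exact permutation test. GluRIIB stood at -7.04, -7.75 and -4.92 in control and at -5.82, -6.46 and -6.53 in tumour-bearing samples, and its groups overlapped. The groups also overlapped for GluRIIA (difference 0.40, exact permutation test, p = 0.60) and GluRIIE (difference 0.92, exact permutation test, p = 0.20). Of 8 such ratios tested, none can pass 0.05 with n = 3 per group by an exact test.

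**Figure D3:**
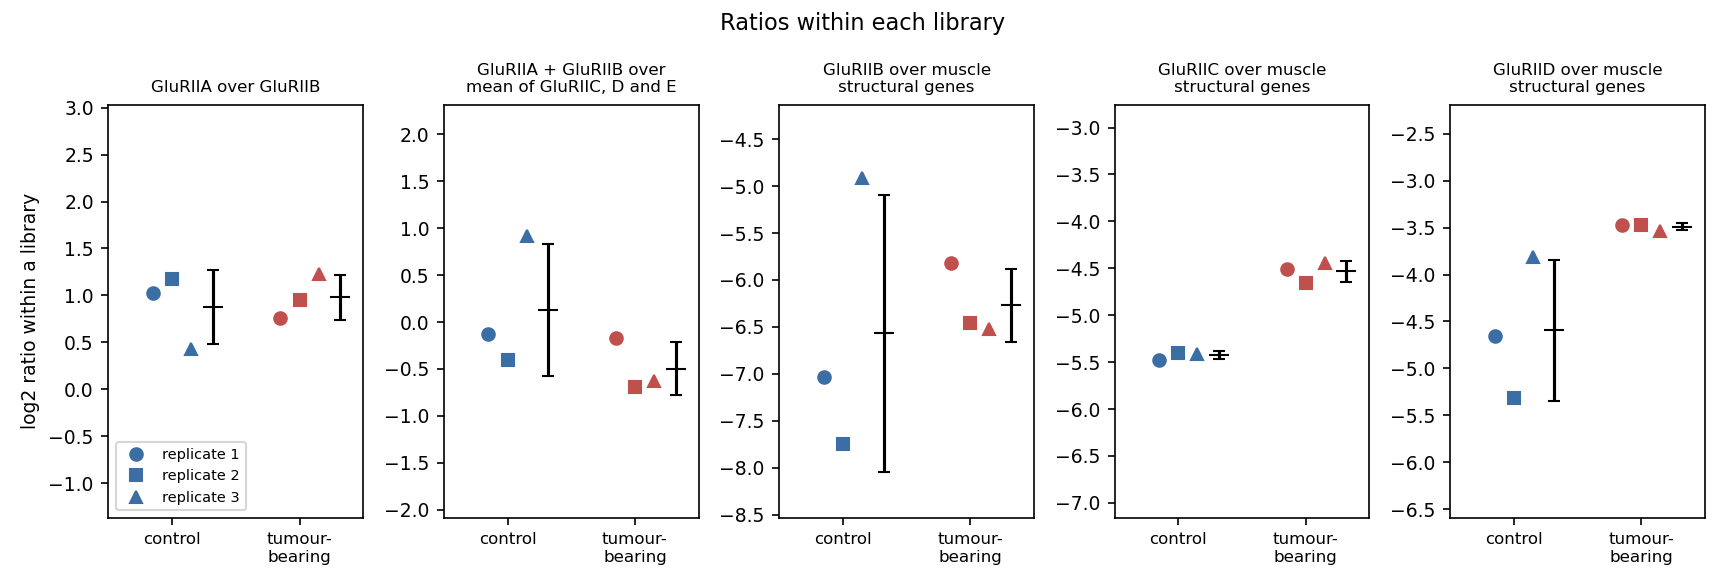
Log2 ratios within each library (vertical axes of equal span, not starting at 0) in 3 control and 3 tumour-bearing samples, with a marker per replicate number and black bars for the mean ± SD. The 2 left panels overlap between groups, the GluRIIC and GluRIID panels do not, and control replicate 3 is far from the other controls in the GluRIIB panel (-4.92 against -7.04 and -7.75). GluRIIA and GluRIIE over muscle structural genes, not drawn here, overlapped between groups.

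Among muscle identity factors 1 of 8 tested passed as lower and 1 as higher, against 23% and 23.8% of all genes, with a median of -0.60. The homeobox gene slou fell from 405 ± 103 to 152 ± 21.4 normalized counts (n = 3 each, log2 fold change -1.41, edgeR adjusted p = 0.0062), and sd, a partner of vestigial, was higher by 0.45 on the log2 scale (adjusted p = 0.0319), a call that was lost when any sample but tumour-bearing replicate 1 was left out (0.36 to 0.50). Mef2, the general muscle differentiation factor, named after its values were seen, was at 13102, 13129 and 29442 in control and 8033, 11616 and 12552 in tumour-bearing samples and did not pass (-0.79, edgeR adjusted p = 0.137). Like GluRIIB it was highest in control replicate 3. The median of this list was 0.28 with total counts only, and slou was no longer called (-0.51).

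Neto, which encodes the auxiliary protein that clusters these receptors, went the other way from the subunits. It was at 47.7, 163 and 6.47 normalized counts in control and at 313, 439 and 307 in tumour-bearing samples. Every tumour-bearing sample was above every control, as for 31.9% of all genes tested. The log2 fold change of 2.30 (SE 0.99) did not pass by edgeR (adjusted p = 0.104). It passed by edgeR with total counts only (3.36, adjusted p = 0.0187) and when scaled to RpL32 (2.75, adjusted p = 0.0471). It also passed without control replicate 2 (3.72, adjusted p = 0.0279) or control replicate 3 (1.73, adjusted p = 0.0399), and with DESeq2 (2.27, adjusted p = 0.0264). In every other fit that tested Neto it did not pass, with edgeR adjusted p from 0.0684 (replicate block) to 0.245 (without control replicate 1). Requiring at least 10 counts in every sample left Neto out.

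Of 22 tested postsynaptic scaffold and auxiliary genes, Neto included, 4 passed as higher and 3 as lower, against 23.8% and 23% of all genes. The other 15 did not pass, and the list median was 0.45. Grip, a PDZ protein of muscle, was at 218, 258 and 614 in control and 1074, 1413 and 2081 in tumour-bearing samples (log2 fold change 2.06, edgeR adjusted p = 0.0160), and its call was lost without control replicate 1 (1.81, adjusted p = 0.0505). The exchange factor gene RtGEF, whose product brings the kinase Pak to the postsynapse, went from 6116 ± 288 to 13025 ± 1954 (1.09, adjusted p = 0.00259, edgeR, n = 3 each). Ank2, which encodes an ankyrin of the membrane skeleton, fell from 9300 ± 1250 to 2933 ± 793 (-1.66, adjusted p = 0.0034), and the adaptor dock from 2395 ± 351 to 1531 ± 80.7 (-0.65, adjusted p = 0.0107, edgeR, n = 3 each). Under total counts only, 18 of the list passed as higher and 1 as lower (median 1.40), and dock was at 0.27 and not called. The number passing as higher was 1 without control replicate 1, 7 without control replicate 2, 6 without control replicate 3 and 2 without tumour-bearing replicate 2. The scaffold dlg1, the fly PSD-95 relative needed for GluRIIB-containing receptors, named after its values were seen, went from 15694 ± 4675 to 20412 ± 2145 and did not pass (0.38, adjusted p = 0.241, edgeR, n = 3 each).

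Among 12 tested regulators of receptor level or clustering, 2 passed as higher and 4 as lower, against 23.8% and 23% of all genes, and 6 did not pass, with a median of -0.22. The NF-kappaB-type factor Dif was higher, from 1250 ± 319 to 2577 ± 303 (log2 fold change 1.04, edgeR adjusted p = 0.0093, n = 3 each), and its inhibitor cact was lower, from 21102 ± 3181 to 9007 ± 97.2 (-1.23, adjusted p = 0.0020). Cactus is known to act on glutamate receptor density at the larval synapse. Pka-C1, a catalytic subunit of protein kinase A, fell from 51498 ± 17201 to 18162 ± 2446 (-1.50, adjusted p = 0.0092, edgeR, n = 3 each), and the growth kinase S6k was higher by 0.96 on the log2 scale (adjusted p = 0.0278), which was lost when any sample but control replicate 3 was left out (0.78 to 1.02). With total counts only, 8 of these genes passed as higher and the median was 0.72, and cact (-0.32, adjusted p = 0.260) and Pka-C1 (-0.53, adjusted p = 0.0641) were no longer called by edgeR.

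In the retrograde BMP signal, by which muscle supports its motor neurone, 3 of 9 tested genes passed as higher and 1 as lower. The shares over all genes were 23.8% and 23%, and the list median was 0.02. The pathway inhibitor and target Dad went from 3224 ± 442 to 8589 ± 1248 (log2 fold change 1.41, edgeR adjusted p = 0.0017, n = 3 each) and trio, an exchange factor, from 7832 ± 650 to 14293 ± 876 (0.87, adjusted p = 0.0032). The receptor gene tkv fell by 0.90 on the log2 scale (edgeR adjusted p = 0.0474), and its groups overlapped. The call did not hold with total counts only (0.01), upper-quartile factors (-0.76, adjusted p = 0.0841, edgeR) or RpL32 scaling (-0.74, adjusted p = 0.183, edgeR). It also failed with at least 10 counts in every sample (-0.86, adjusted p = 0.0559, edgeR). Leaving out control replicate 1 or 3 or tumour-bearing replicate 1 or 2 lost it too (-0.84 to -0.73). The ligand gene gbb, named after its values were seen, was at 5484 ± 33.6 and 5575 ± 145 (0.02, SE 0.09). In this list 8 of the 9 passed as higher with total counts only, and the median was 0.96. Of 6 Wingless pathway genes, arr, the co-receptor, passed as lower (-1.28, adjusted p = 0.0049, edgeR), against 23% of all genes, and 5 did not pass. The list median of -0.40 was 0.49 with total counts only, where arr was no longer called (-0.32).

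Among glutamate receptor genes outside the junction subunits, 1 of 5 tested passed as higher, against 23.8% of all genes, and 4 did not pass, with a median of 0.04. Nmdar1, an NMDA-type subunit, passed as higher at very low levels, from 11.8 ± 2.99 to 29.1 ± 8.21 normalized counts (log2 fold change 1.27, edgeR adjusted p = 0.0425, n = 3 each), and lost the call under each removal of a sample, with log2 fold changes from 1.02 to 1.48 (adjusted p from 0.0573 to 0.145, edgeR). CG11155, annotated as a kainate-type receptor and named after its values were seen as the most abundant of the list, was at 13522, 13371 and 11948 in control and 13015, 13944 and 10196 in tumour-bearing samples. Its log2 fold change was -0.06 (SE 0.16) and the groups overlapped. With total counts only 4 of the 5 passed as higher.

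Of 7 tested channels of muscle excitability, 1 passed as higher and 2 as lower, against 23.8% and 23% of all genes. The other 4 did not pass, and the median was 0.09. The calcium-activated potassium channel gene slo fell from 2442 ± 1328 to 518 ± 107 (log2 fold change -2.24, edgeR adjusted p = 0.0090, n = 3 each), and the inward rectifier gene Irk2 was also lower (-2.09, adjusted p = 0.0296), a call lost without control replicate 1 or 2 or tumour-bearing replicate 1 or 2 (-2.09 to -1.73). Shab, a delayed rectifier, was at 1648 ± 81.6 and 3225 ± 801 (0.97, adjusted p = 0.0083, edgeR, n = 3 each). Under total counts only, 4 of the 7 passed as higher (median 1.03), and neither slo (-1.38, adjusted p = 0.0510) nor Irk2 (-1.08, adjusted p = 0.127) was called by edgeR.

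Markers of other cell types that a body wall can hold were measured in the same way, beside 23.8% of all genes passing as higher and 23% as lower. Of 14 neurone and presynaptic markers tested, 5 passed as higher and 9 did not pass (12 higher with total counts only, and 2 without control replicate 1, 3 without tumour-bearing replicate 2 and 3 without tumour-bearing replicate 3), and their summed level was 114 to 166 CPM in control and 239 to 278 in tumour-bearing samples. Syn, the synapsin gene, went from 1204 ± 396 to 5178 ± 323 normalized counts (2.11, edgeR adjusted p = 0.0023, n = 3 each) and Snap25 was higher by 1.17 on the log2 scale (adjusted p = 0.0243), a call lost without control replicate 1 or 3 or tumour-bearing replicate 2 or 3 (0.90 to 1.27). Of 9 glial markers 2 passed as higher, moody (1.60) and gb (1.23), and 2 as lower, Gs2 (-4.08) and Gli (-1.35), close to the shares over all genes. Their sum was 414 to 1050 CPM in control and 224 to 300 in tumour-bearing samples. Gs2, the most abundant of them in control, went from 33108 ± 19880 to 1954 ± 890 normalized counts (n = 3 each). Neither repo (0.84, adjusted p = 0.0692) nor wrapper (-1.01, adjusted p = 0.125) passed by edgeR, both named after their values were seen. Gli was not called with total counts only (-0.46).

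Of 7 haemocyte markers 6 passed as higher, against 23.8% of all genes, among them srp (2.79) and He (2.70). Only 3 passed without control replicate 1. The sum over the 7 was 444 to 804 CPM in control and 1345 to 3664 in tumour-bearing samples. Fat body markers had 2 of 7 lower, close to the 23% over all genes, and 5 did not pass. Those lower were Adh (-5.83) and Lsp1gamma (-2.91, not called without control replicate 2 or 3 or tumour-bearing replicate 2 or 3, -2.83 to -2.44). Fat body sums were 143 to 363 CPM in control and 20.9 to 190 in tumour-bearing samples. Epidermis and larval cuticle markers had 7 of 8 lower, against 23% of all genes, led by Lcp3 (-11.88) and Lcp4 (-9.96). Their sum was 126500 to 235847 CPM in control and 1060 to 1344 in tumour-bearing samples. Scaling by total counts only left 1 fat body and 4 epidermis and cuticle markers called as lower. The part of these other cell types, and of the cuticle genes in the totals, in the decrease of the receptor genes was not tested.

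**Figure D4:**
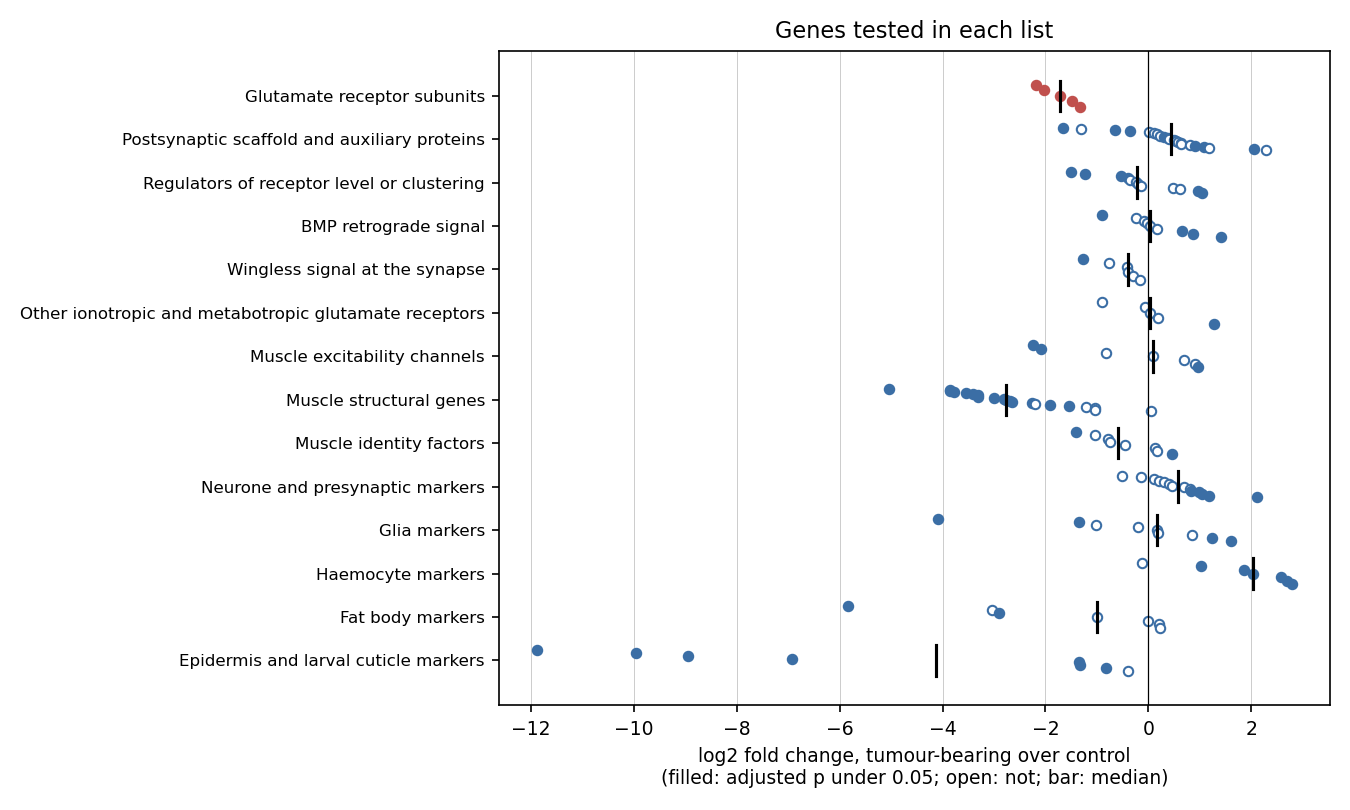
Log2 fold change, tumour-bearing over control (horizontal axis), of each gene tested in the receptor subunit list (red) and in 13 lists of related genes and cell type markers (blue), filled where the adjusted p was under 0.05, with a black bar at each median. The subunit genes are all filled between -2.18 and -1.32, the muscle structural genes have their median at -2.76, and the other glutamate receptors have theirs at 0.04.

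Counted per gene and setting, 75 of 75 log2 fold changes of the subunit genes stayed negative under other settings, and 66 of these passed the threshold. All of these settings reuse the same samples. GluRIIA ran from -2.11 to -1.10 and GluRIIB from -2.36 to -1.30, and both passed under every setting tried (highest edgeR or DESeq2 adjusted p 0.00548 and 0.0190). GluRIID and GluRIIE lost the call only with total counts.

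**Figure D5:**
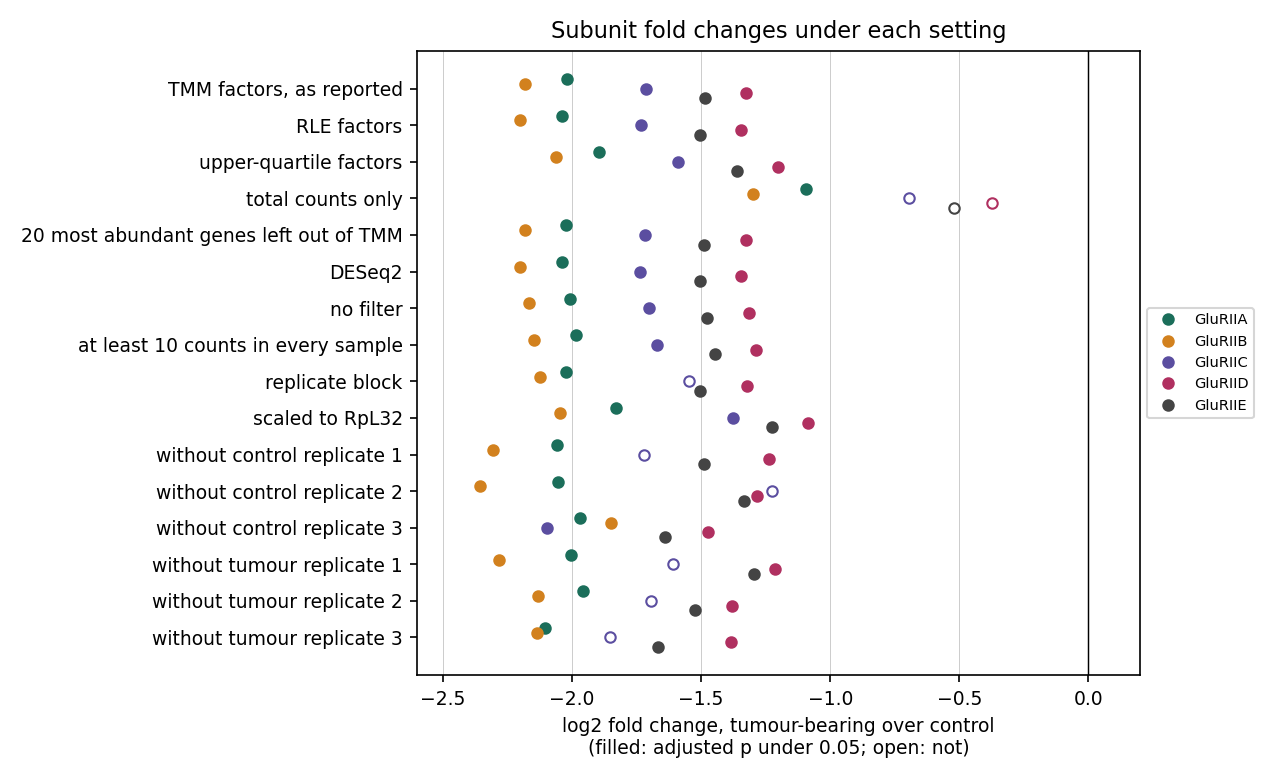
Log2 fold change, tumour-bearing over control (horizontal axis), of the 5 subunit genes under the reported TMM fit and 15 other settings (rows), filled where the adjusted p was under 0.05 and open where it was not. All points lie left of 0, the open ones are GluRIIC in 7 settings and GluRIID and GluRIIE with total counts only, where GluRIID reaches -0.37.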

How the data were processed

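Libraries were made with an Illumina TruSeq kit from 6 samples. The authors deposited raw read counts per gene, which were used for every test, and beside them a normalized signal that the authors made by dividing the counts by 1 constant per sample, used only for that check. The submitters' notes name TopHat, Bowtie, HTSeq, DESeq2 and BDGP6, with no versions. The deposited fold changes and p-values were not used. RNA extraction is described as Trizol in one source and a column kit in another. The labels number the replicates without saying whether they are independent cultures, so the p-values may reflect technical spread only.

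Counts were tested with edgeR 4.0.16 in R 4.3.3 (filterByExpr, TMM factors, robust quasi-likelihood test, Benjamini-Hochberg adjustment over 10074 genes, threshold 0.05). The procedure was also run on simulated counts with a smaller spread and fewer changed genes than these data, balanced in direction, so that run cannot test the scaling. Within-library ratios, with 0.5 normalized counts added for lists, were compared by exact permutation (scipy 1.17.1). Other settings tried were scaling by RLE or upper-quartile factors or by total counts only, the 20 most abundant genes left out of TMM, DESeq2 1.42.0, no filter or at least 10 counts in every sample, thresholds of 0.01 and 0.1, each sample left out, the replicate number as a block and, chosen after seeing the data, scaling to RpL32. For the ratios they were counts without length, another pseudocount, medians and muscle identity factors as the reference.

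The genes and lists were chosen with earlier results of these data known. Named genes are the 5 subunit genes, Neto, and, per list, the 2 strongest increases and 2 strongest decreases that passed, otherwise the 2 most abundant genes, with exceptions stated. Genes most alike each subunit gene were the 3 with the highest Pearson r. Coordinates come from the Ensembl annotation of BDGP6, which holds 11181 of the identifiers. The listed genes hts, CaMKII, GluRIB, Ca-alpha1T, Irk1, tn and para were not analysed here.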

Additional observations from a re-analysis of the deposited data

How the results depend on the processing

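Of 133 values under other settings, 122 kept their direction and side of the threshold, stayed within the spread or, for counts of genes called, changed little. A fall from 5 to 4 subunit genes called was counted among these 122. The counts of genes called come from the same fits as the fold changes, so the 133 values are not independent. A ratio difference that changed sign within the spread was also counted as kept, as for GluRIIA to GluRIIB without control replicate 3 (-0.12). With total counts only, 2 subunit genes were called, and GluRIIC (-0.69, adjusted p = 0.148), GluRIID (-0.37, adjusted p = 0.0798) and GluRIIE (-0.52, adjusted p = 0.0780) lost the edgeR call; 89.9% of all calls were then higher, against 50.8% with TMM, 60.1% with upper-quartile factors and 65.7% with RpL32 scaling, which was chosen after seeing the data. Calls over all genes were 695 lower and 6189 higher with total counts only and 1203 lower with RpL32 scaling, against 2320 and 2393. When 1 sample was left out, GluRIIC ran from -2.10 to -1.23, 4 to 5 subunit genes were called, and calls over all genes ran from 1380 to 2548 lower and 1675 to 2590 higher. The replicate numbers were shared only as numbers: deviations of same-numbered samples correlated at -0.05, 0.07 and 0.11, and not every sample correlated best with its own number. With a replicate block, GluRIIC was at -1.55 (edgeR adjusted p = 0.0812), 4 subunit genes were called and 1665 genes were lower and 1907 higher. With muscle identity factors as the reference list, the difference of the subunit genes from it was -1.26 in place of 0.72. The cause of these changes was not tested. With 3 samples per group the exact test of a ratio could not go below 0.10.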

Other observations

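Genes with the level pattern most like each subunit gene over the 6 samples were, by Pearson r of log2 CPM among 8571 genes, Cyp1, AANATL2 and MFS9 for GluRIIA (highest r 0.999), CG13685, CG8031 and CG10359 for GluRIIB, coro, CG4115 and RyR for GluRIIC, CG31176, CG8547 and pot for GluRIID, and CG14598, CG13516 and Cpr78Cb for GluRIIE. RyR encodes the calcium release channel of the muscle reticulum and had r = 0.997 with GluRIIC and a log2 fold change of -2.30. Cpr78Cb belongs to a cuticle protein family and had r = 0.993 with GluRIIE. All points share the difference between the groups, so these values are a description, and the fold changes of the matched genes ran from -9.29 for AANATL2 to -0.86 for CG8547.

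Genes beside the receptor loci did not all move with them. Next to GluRIIA, CG14017, which shares exon bases with it, was at 70.9 ± 19.8 normalized counts in control and 20.9 ± 6.45 in tumour-bearing samples (log2 fold change -1.75, edgeR adjusted p = 0.0154, n = 3 each), while DIP-theta beyond GluRIIB was at -0.23 (SE 0.68). Beside GluRIIC, Lsp1beta (0.21, SE 1.09) and Tmtc2 (0.65, SE 0.39) did not pass. Lrrk, which overlaps GluRIIE on the opposite strand, went from 2391 ± 112 to 1653 ± 206 (-0.53, adjusted p = 0.0139, edgeR, n = 3 each), a smaller change than that of GluRIIE, and Nep4 beyond GluRIID did not pass (-1.24, SE 0.64).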
